A study of Mus musculus with 12 samples.

Results

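The heavy chain variable genes are the Ighv genes of mouse chromosome 12, and 125 of them were among the 13886 genes of the count table, taken as every gene whose name starts with Ighv followed by a digit. Their use was measured in 6000 lymph node cells of 3 mice by droplet-based 5′ single-cell RNA sequencing, in which each counted molecule carries a unique molecular identifier (UMI). All 3 mice had been immunised with the hapten-carrier conjugate NP-KLH in Sigma Adjuvant System and gavaged with tamoxifen, and the cells were IgD-negative, eYFP-positive plasma cells and B cells sorted 5 days after tamoxifen, at day 16 of the primary response. The labels name no strain, age or driver of the eYFP label. The authors' annotation placed 137 cells in the plasma cell state (PC), 49 in the pre-plasma cell state (prePC), 396 in the pre-memory state (preMem), 165 in the state between light and dark zone (LZtoDZ), 2213 in the light zone (LZ) and 3040 in the dark zone (DZ). LZ, DZ and LZtoDZ cells are together called germinal centre (GC) cells. Every state came from the same 3 mice, which were immunised alike, so comparisons are between cell states within mice and there was no unimmunised group.

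A B cell joins 1 V segment to a D and a J segment, and the joined exon encodes most of the antigen-contacting part of the heavy chain. The choice of V is inherited by all daughters of the cell, so cells of 1 clone share their heavy and light chain V genes while those exons are mutated in the germinal centre. In C57BL/6 mice the response to NP is known for antibodies that use Ighv1-72 with a lambda1 light chain. Plasma cells transcribe the joined heavy chain gene far more strongly than B cells do.

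The 124 members found by name in the GENCODE annotation of GRCm38 lie on the minus strand at chr12:113572927-116000461. Of these, 105 are annotated as functional V genes and 19 as V pseudogenes, and the remaining name, Ighv1-13.1, was not matched. The coding V region without its leader was read for 122 members. The germline V regions of Ighv1-72 and of 3 genes it is set against are shown because the identification of a cell by its V gene rests on how far their letters differ. Sequences are from GENCODE transcripts of GRCm38, minus strand, 5′ to 3′. In Ighv1-72 (chr12:115757984-115758277) the capitals mark codon 33, counted from the first codon of the mature V region, a tryptophan codon whose replacement by leucine is known to raise affinity for NP. In Ighv1-64 (chr12:115507545-115507838), Ighv1-53 (chr12:115158403-115158696) and Ighv1-22 (chr12:114746273-114746566) the capitals mark bases that differ from Ighv1-72.
Ighv1-72: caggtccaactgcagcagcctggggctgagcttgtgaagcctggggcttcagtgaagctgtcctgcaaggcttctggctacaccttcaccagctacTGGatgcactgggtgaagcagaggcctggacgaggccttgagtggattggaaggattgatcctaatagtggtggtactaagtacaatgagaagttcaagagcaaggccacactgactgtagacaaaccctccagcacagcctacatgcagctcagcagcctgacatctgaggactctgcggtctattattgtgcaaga
Ighv1-64: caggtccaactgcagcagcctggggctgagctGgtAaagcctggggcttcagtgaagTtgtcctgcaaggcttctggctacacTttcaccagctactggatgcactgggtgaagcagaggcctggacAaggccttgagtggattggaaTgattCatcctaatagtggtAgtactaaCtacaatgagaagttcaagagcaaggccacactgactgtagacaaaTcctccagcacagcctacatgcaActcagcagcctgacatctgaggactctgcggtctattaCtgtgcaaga
Ighv1-53: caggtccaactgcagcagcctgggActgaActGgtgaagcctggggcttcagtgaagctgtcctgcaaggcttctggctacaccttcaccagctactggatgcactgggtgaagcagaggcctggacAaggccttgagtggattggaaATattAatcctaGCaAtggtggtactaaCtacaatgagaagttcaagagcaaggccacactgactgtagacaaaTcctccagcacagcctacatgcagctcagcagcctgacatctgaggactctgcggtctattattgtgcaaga
Ighv1-22: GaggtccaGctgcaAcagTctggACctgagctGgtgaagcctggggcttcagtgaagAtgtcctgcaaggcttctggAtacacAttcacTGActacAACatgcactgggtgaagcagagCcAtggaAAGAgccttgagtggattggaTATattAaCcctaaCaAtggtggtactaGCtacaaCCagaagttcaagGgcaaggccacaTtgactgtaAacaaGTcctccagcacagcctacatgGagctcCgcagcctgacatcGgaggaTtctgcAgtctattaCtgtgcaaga
Ighv1-64 and Ighv1-53 each differed from Ighv1-72 at 12 of 294 bases, an identity of 95.9%. Ighv1-22 differed at 44 of 294 bases, an identity of 85.0%. The closest member was Ighv1-62-3, which differed at 2 bases. Ighv1-62-3 had 146 UMIs in all, 128 of them (87.7%) in cells led by Ighv1-72, and led 1 cell, so its counts cannot be told apart from misassigned Ighv1-72 reads and are given as uncertain.

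Each cell was assigned the Ighv gene with the most UMIs, if it had at least 2 and more than any other Ighv gene, and this gene is called the top V. A top V was found in 5389 cells (89.8%). No Ighv UMI was present in 93 cells, and 518 had a single UMI or a tie. In cells with a top V, that gene held a median of 89.5% of all Ighv UMIs, and 585 of them (10.9%) had a second Ighv gene with at least 2 UMIs and at least 20% of the Ighv total. Hashtags assigned the cells to mice, and no further call of doublets was made. The top V covered the total of a cell's transcripts, mutated or not, and junction sequences were not analysed here.

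The states were checked against marker genes, and the prePC state was not set apart by them. Summed PC markers (Sdc1, Prdm1, Xbp1, Jchain, Irf4 and Fkbp11) stood at 19957 to 25600 CPM per mouse in PC and at no more than 4306 CPM in any other state. In prePC they ranged from 1666 to 4306 CPM, against 1517 to 1670 CPM in DZ. Memory markers were at 1322 to 1448 CPM in preMem cells, 978 to 1235 CPM in prePC cells and 46.1 to 59.3 CPM in LZ cells. The 11 markers of T, myeloid, stromal and erythroid cells found summed to at most 13.0 CPM in each state but prePC, where they reached 346 CPM in 1 mouse and 3 of 49 cells held at least 2 such UMIs. Cells had a median of 7053 UMIs, and 24018 in PC.

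The use of V genes was spread over many members. At least 1 cell was led by 108 of the 125 genes, 68 led at least 10 cells, and 17 led none. Cells of all 3 mice were led by 67 genes, cells of 2 mice by 19 and cells of 1 mouse by 22. The 10 most used genes together led 51.3% of cells, averaged over mice. The 66 members of family 1, the large J558-related family, are 52.8% of the members and led 71.8% ± 5.70 of the cells (SD, n = 3 mice). Pseudogenes led 43 cells in all, 24 of them Ighv1-83.

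Relative to its mean, Ighv1-72 varied least between mice among the 10 leading genes. It led 8.43%, 9.56% and 10.9% of the cells of mice 1, 2 and 3, a mean of 9.62% ± 1.22 (SD, n = 3), which was 529 cells. Ighv1-22 had the higher mean, 12.0% ± 7.68, with 7.84%, 20.9% and 7.37%, so that its place rested on mouse 2. Ighv1-53 led 5.75% ± 1.41 of cells, Ighv1-81 4.67% ± 1.10 and Ighv1-64 4.05% ± 0.70. These 3 genes were used at a similar level in every mouse.

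Other leading genes belonged to 1 mouse. Ighv1-82 led 8.58% of cells in mouse 1, against 0.378% and 0.728% in mice 2 and 3. Ighv1-78 led 5.83% in mouse 2, against 1.49% and 2.09% in mice 1 and 3. Ighv10-3 and Ighv3-1 led 7.05% and 7.10% of cells in mouse 3, and in mice 1 and 2 at most 1.49% and 0.918%. Ighv1-55 led 2.98% ± 1.43 of cells. In the order of the means, neighbouring genes overlapped within their SD except Ighv1-72 and Ighv1-53, whose 3 values each did not overlap.

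**Figure D1:**
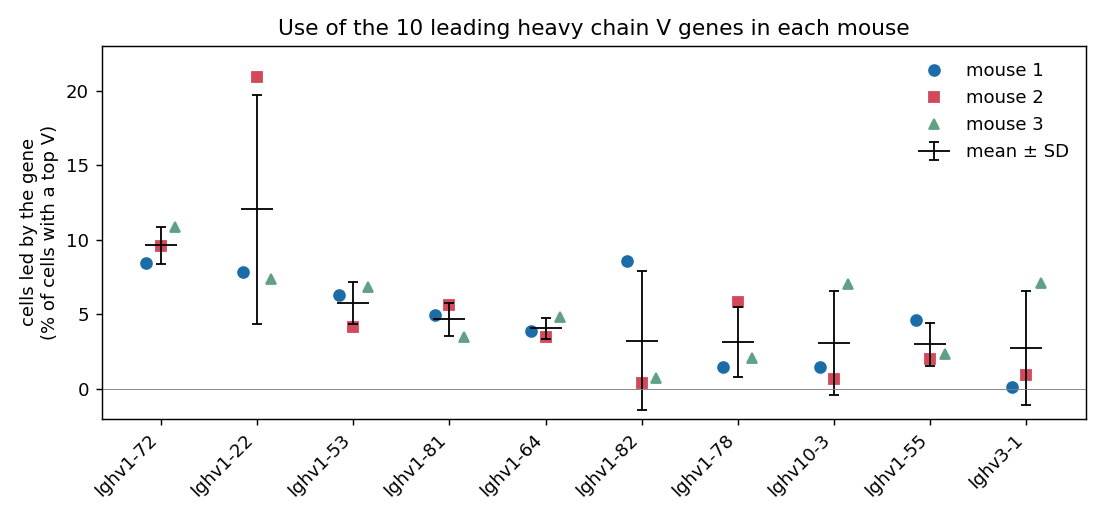
Use of the 10 leading Ighv genes. The y axis gives the share of cells with a top V that each gene led (%), points are the 3 mice, and the bar is the mean with its SD. Ighv1-72 lies between 8.43% and 10.9% in the 3 mice, while Ighv1-22, Ighv1-82, Ighv1-78, Ighv10-3 and Ighv3-1 each have 1 mouse far above the other pair.

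The Ighv1-72 share was set against cell state to see whether cells with the NP-associated V gene were distributed like other cells. Among PC, Ighv1-72 led 8 of 45 cells (17.8%), 11 of 57 (19.3%) and 10 of 33 (30.3%) in mice 1, 2 and 3. Among GC cells it led 96 of 1185 (8.10%), 152 of 1629 (9.33%) and 221 of 2019 (10.9%). Every mouse had the higher share in PC, and the PC and GC ranges did not overlap. The difference was 13.0 ± 5.51 percentage points (SD, n = 3, exact two-sided sign-flip permutation p = 0.25, which is the smallest p that 3 pairs allow, adjusted p = 0.35 over 7 share comparisons). The exact 95% interval of each mouse's PC share was wide, reaching down to 8.00%, 10.0% and 15.6%, and covers counting error only.

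The PC came from 2 series of cell barcodes, and the share differed between them. Of the PC with a top V, 20 were in the first series, which held nearly all cells of the other states, and Ighv1-72 led 1 of them (5.00%). In the second series, which held 115 PC with a top V, Ighv1-72 led 28 (24.3%). By mouse, Ighv1-72 led 7 of 42, 11 of 46 and 10 of 27 PC of the second series, and 1 of 3, 0 of 11 and 0 of 6 PC of the first, so mouse 1 went the other way and the first series held few PC in each mouse. For PC of the second series, state and barcode series cannot be told apart. With PC of the second series alone the difference from GC was 16.4 percentage points. In PC of the first series the Ighv1-72 share was above that of GC cells in mouse 1 (8.10% in GC). It was below the GC share in mice 2 and 3 (9.33% and 10.9% in GC).

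Among preMem cells Ighv1-72 led 7 of 95 (7.37%), 12 of 143 (8.39%) and 8 of 136 (5.88%), against the GC shares above. The difference was -2.25 ± 2.44 points and had 1 sign in all 3 mice (exact sign-flip p = 0.25). PreMem cells had a median of 4119 UMIs and GC cells 7195, while both had a median of 11 Ighv UMIs. The difference was 0.614 points when every cell was thinned to 2000 UMIs, so no direction is given for it. Thinning left a top V in 1878 DZ, 1436 LZ and 318 preMem cells, against 2678, 2002 and 374 before, so it did not act equally on the states. In LZ cells Ighv1-72 led 6.30%, 8.68% and 9.30%, and in DZ cells 9.39%, 9.65% and 12.1% in mice 1, 2 and 3. The share was lower in LZ in each mouse, by 2.29 ± 1.15 points on average (exact sign-flip p = 0.25). With only top V genes that held at least 80% of the Ighv UMIs the difference was -1.10 points and the mice no longer shared a sign (exact sign-flip p = 0.50). Viewed from the V gene, 63.6% ± 3.63 of the DZ and LZ cells led by Ighv1-72 were DZ cells, against 56.9% ± 3.03 of those led by any other V (difference 6.69 ± 3.66 points, higher in 3 of 3 mice, exact sign-flip p = 0.25), and the difference was 3.63 points with the 80% minimum (exact sign-flip p = 0.50). PrePC cells were few, and Ighv1-72 led 2 of 15, 2 of 22 and 0 of 10.

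**Figure D2:**
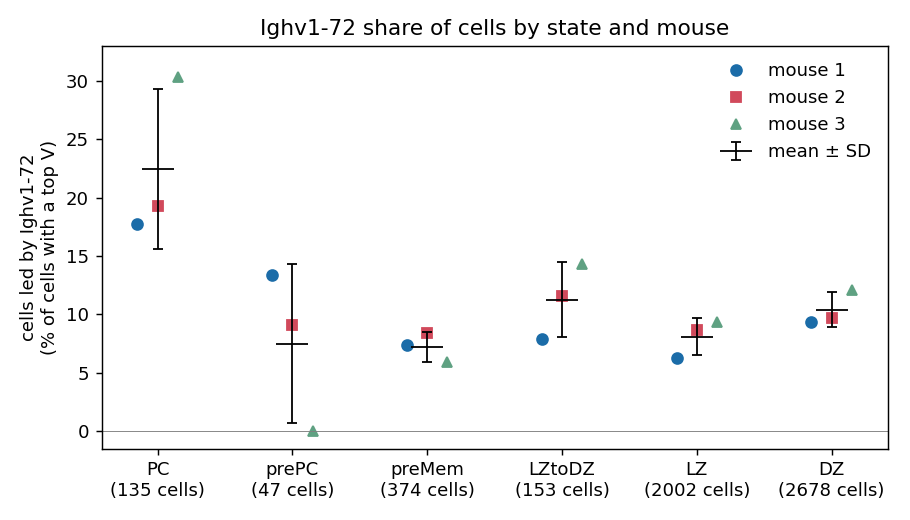
Share of cells led by Ighv1-72 in each state. The y axis is the percentage of cells with a top V, points are the 3 mice, the bar is the mean with its SD, and the number of cells with a top V stands under each state. The 3 PC points, 17.8% to 30.3%, lie above all preMem, LZ and DZ points.

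Other genes shifted between states as well, and 10 genes were compared in 3 contrasts. Ighv1-22 was lower in preMem than in GC cells of every mouse, by 9.69 points on average, with 2.11%, 4.20% and 3.68% of preMem cells. It was also lower in LZ than in DZ cells, by 4.85 points, in 3 of 3 mice. Among PC it led 11 of 57 cells in mouse 2 and 0 in mice 1 and 3.
Ighv1-64 went the other way. It led 8.42%, 6.29% and 8.82% of preMem cells, a mean of 7.85%, against 3.48% of GC cells, and was higher in all 3 mice. It was also higher in LZ (4.39%) than in DZ (2.88%) cells of each mouse. In PC it led 8 of 45 cells of mouse 1, as many as Ighv1-72, and 2 and 1 cells in mice 2 and 3. Ighv1-55 was higher in LZ (4.09%) than in DZ (2.17%) cells of each mouse. Ighv3-1, which led 175 cells, led 0 PC and 0 preMem cells. Mouse 3 held 156 of those 175 cells, and there 0 of 33 PC allows a share of up to 9.09% and 0 of 136 preMem cells one of up to 2.21%, against 7.73% of its GC cells, so that a lower share in PC was not detectable at this number of cells. Sign-flip p was 0.25 at the least for each gene and 0.536 or more after adjustment over the 30 comparisons.

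The light chain was compared because it took no part in choosing the genes. Among GC cells, a lambda V gene was the top light chain V in 88.5%, 78.9% and 89.0% of those led by Ighv1-72, against 7.33%, 8.45% and 4.61% of those led by any other Ighv gene. The means were 85.5% ± 5.69 and 6.80% ± 1.97, and the difference was 78.7 ± 7.30 points, present in 3 of 3 mice (exact sign-flip p = 0.25). Iglv1, the V gene of lambda1, was the partner in 388 of 467 such Ighv1-72 cells (83.1%). No other leading Ighv gene exceeded 12.0% lambda in any mouse.

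**Figure D3:**
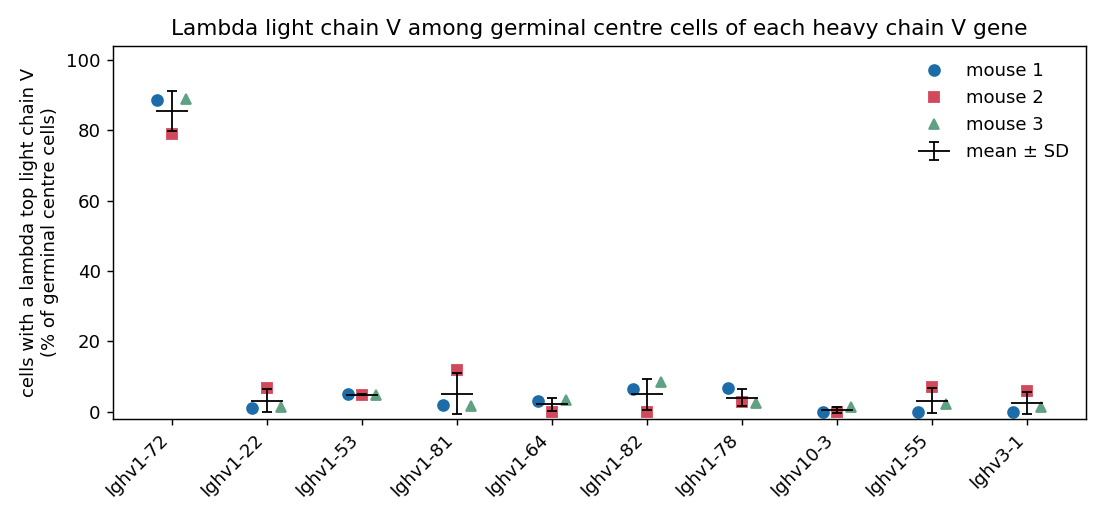
Lambda light chain V by heavy chain V. The y axis is the share of GC cells (%) whose top light chain V is a lambda gene, for the 10 leading Ighv genes; points are the 3 mice and the bar is the mean with its SD. Ighv1-72 stands at 78.9% to 89.0%, apart from the other 9 genes.

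The lambda share of Ighv1-72 cells was not the same in all states. It was 27 of 29 cells (93.1%) in PC, 147 of 168 (87.5%) in LZ and 236 of 281 (84.0%) in DZ, but 11 of 27 (40.7%) in preMem. Among cells led by other V genes it was 8.49% in PC, 5.51% in LZ, 7.41% in DZ and 6.16% in preMem. These are cell counts pooled over mice and no test was run on them.
The lambda share depended on how the light chain was read. When the constant gene with the most UMIs was used in place of the V gene, the difference between Ighv1-72 and other cells was 20.8 points.

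The heavy chain isotype was read from the constant gene with the most UMIs. The light chain read in that way gave a much smaller lambda difference, as stated above, and the isotype had no second reading. IgG1 was the isotype of 11.8%, 23.3% and 12.0% of the GC cells led by Ighv1-72 in mice 1, 2 and 3, against 32.9%, 22.4% and 18.9% of those led by other V genes. The difference of -9.05 ± 11.2 points had the opposite sign in mouse 2 (exact sign-flip p = 0.50) and did not exceed the spread between mice. IgG2b was the isotype of 21.2%, 15.5% and 21.9% of Ighv1-72 cells, against 3.55%, 12.7% and 12.7% of the others. IgM was the isotype of 59.4% of Ighv1-72 cells and 59.5% of the others over all mice. The share of cells in G1 was 34.7% ± 3.57 in Ighv1-72 GC cells and 42.5% ± 3.62 in the others, a difference that mouse 2 did not share (exact sign-flip p = 0.50).

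To approach clonal expansion, cells were grouped by heavy and light chain top V, which 5340 cells had. A pair of V genes is not a clone, since unrelated cells can use the same pair and cells of a clone can be missed or assigned to another pair. The data held 1164 pairs, of which 931 were in 1 mouse, 186 in 2 mice and 47 in 3 mice. Pairs with at least 10 cells numbered 27, 28 and 32 in mice 1, 2 and 3, and they held 46.8%, 48.8% and 55.8% of the cells. The remaining cells were spread over small pairs.

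Only 4 pairs had at least 5 cells in each mouse. Ighv1-72 with Iglv1 was the largest, with 92, 132 and 205 cells, 6.93%, 7.17% and 9.44% of the cells of mice 1, 2 and 3. The others were Ighv1-22 with Igkv12-98 (22, 54 and 10 cells), Ighv1-22 with Igkv10-94 (19, 48 and 8 cells) and Ighv1-81 with Igkv19-93.1 (12, 7 and 18 cells).
Other large pairs were shared by fewer mice. Ighv1-53 with Igkv10-96 had 35, 1 and 77 cells in mice 1, 2 and 3, Ighv1-22 with Igkv9-120 had 0, 39 and 90, Ighv1-22 with Igkv3-2 had 12, 68 and 0, and Ighv12-3 with Igkv4-91 had 39, 1 and 12. Others were private to 1 mouse or nearly so. Ighv1-82 with Igkv1-133 had 93 cells in mouse 1 and 0 in the others, and made up 80.9% of the Ighv1-82 cells of that mouse. Ighv1-78 with Igkv3-2 had 97 cells, all in mouse 2. Ighv10-3 with Igkv10-94 and Ighv3-1 with Igkv3-12 had 145 cells each in mouse 3, against 1 and 0 cells elsewhere, and made up 94.2% of the Ighv10-3 and 92.9% of the Ighv3-1 cells of that mouse. Ighv1-58 with Igkv9-124 had 64 cells, all in mouse 3. In mouse 2 Ighv1-22 had no such single partner: its 387 paired cells in mouse 2 were spread over 20 light chain V genes, the largest with 17.6%.

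GC cells were 89.7% of all cells with a pair. Of the 145 Ighv3-1 with Igkv3-12 cells, 80 were DZ, 62 LZ and 3 LZtoDZ. Of the 97 Ighv1-78 with Igkv3-2 cells, 69 were DZ, 26 LZ and 2 LZtoDZ. Neither had a cell among PC or preMem. Other pairs of 1 mouse had a few: Ighv1-22 with Igkv8-21 had 2 PC, Ighv1-82 with Igkv1-133 had 1 PC and 1 preMem cell, and Ighv10-3 with Igkv10-94 had 1 PC. Ighv1-22 with Igkv9-124, found in 0, 50 and 7 cells of mice 1, 2 and 3, had more, with 6 PC among its 50 cells of mouse 2. The Ighv1-72 with Iglv1 pair had 27 PC, 11 preMem and 3 prePC cells. Isotype calls were mixed within the large private pairs. Of the 145 Ighv10-3 with Igkv10-94 cells, 89 had an isotype: 35 were IgG3, 21 IgM, 16 IgG2b, 11 IgG1 and 6 IgG2c. These calls rest on constant gene UMIs and were not checked by a second reading, so class switching within a pair is not read from them.

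In some large pairs a second Ighv transcript was found in more of the cells than elsewhere in the same mouse. For the 6 largest pairs of each mouse, the Ighv gene most often detected beside the top V was looked up, so these genes were chosen after their values were seen. Of the 64 cells of the Ighv1-58 with Igkv9-124 pair in mouse 3, 55 (85.9%) had at least 1 UMI of Ighv3-1, against 226 of the 2366 other cells of that mouse (9.55%). In those 64 cells Ighv3-1 had 168 UMIs and Ighv1-58 had 1172. Ighv2-2 was found in 59 of the 97 Ighv1-78 with Igkv3-2 cells of mouse 2 (60.8%), against 7.67% of the other cells. Ighv10-1 was found in 27 of the 50 Ighv1-22 with Igkv9-124 cells (54.0%, against 1.97%) and Ighv5-4 in 25 of the 68 Ighv1-22 with Igkv3-2 cells (36.8%, against 3.78%), both in mouse 2. In 8 other pairs, among them Ighv1-72 with Iglv1 in mice 1 and 3, the most frequent second gene was no more frequent than in the other cells of the mouse, and in 6 of those 8 it was Ighv1-22. In mouse 2 the Ighv1-72 with Iglv1 pair had Ighv2-6 in 18 of 132 cells (13.6%), against 2.67% of the other cells. The source of these second transcripts was not tested.

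**Figure D4:**
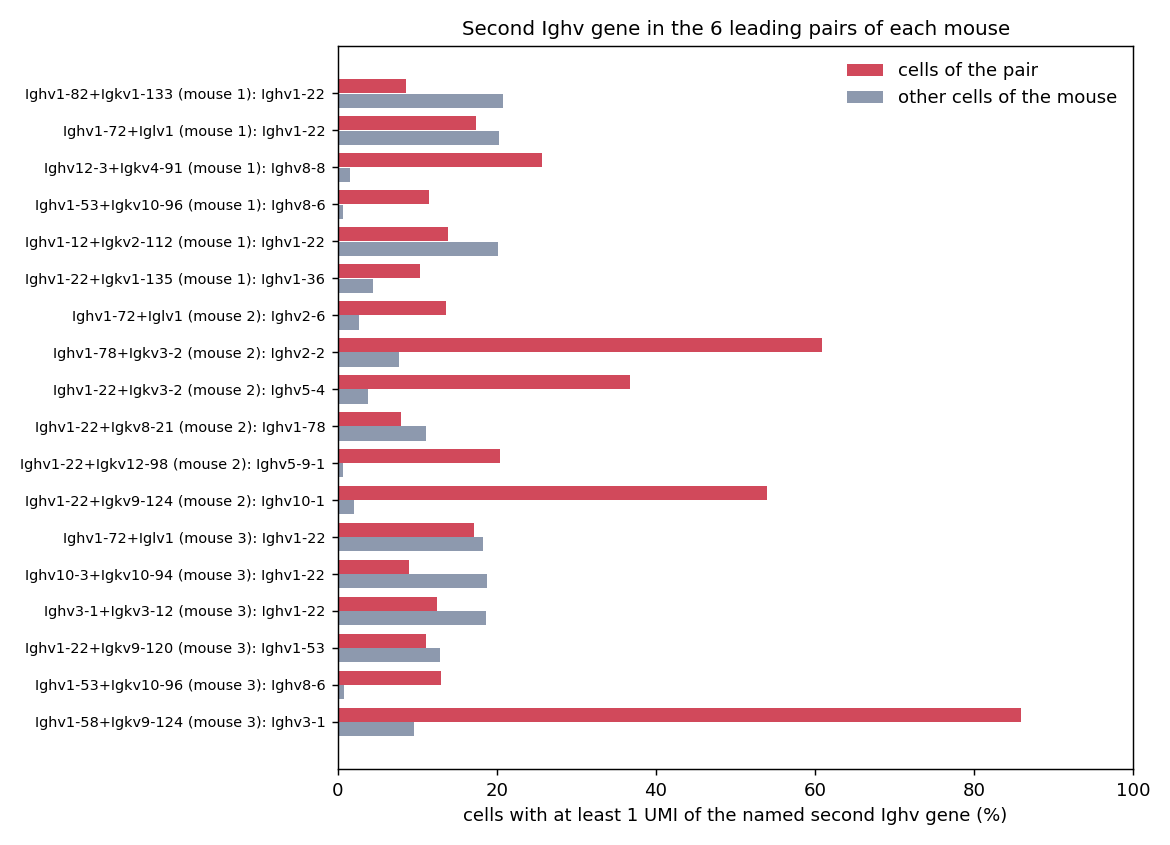
Second Ighv gene in the 6 largest pairs of each mouse. Each row names a pair, its mouse and the Ighv gene most often found beside the top V; the x axis is the share of cells (%) with at least 1 UMI of that gene, in cells of the pair (red) and in the other cells of the mouse (grey). The share reaches 85.9% for Ighv3-1 in the Ighv1-58 with Igkv9-124 pair, against 9.55% of the other cells.

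Pair sharing differed between states. The chance that 2 cells of a mouse shared a pair was 2.73%, 4.70% and 9.09% in PC, against 1.78%, 1.78% and 2.72% in GC cells of mice 1, 2 and 3. In preMem it was 0.183%, 0.0599% and 0.185%, the lowest of these states in each mouse. Ighv1-72 with Iglv1 made up 6 of 45, 11 of 57 and 10 of 33 PC with a pair in mice 1, 2 and 3. The pair values of PC, also those at 30 cells below, are therefore not independent of the Ighv1-72 share in PC. They were not computed without that pair. Compared at 30 cells, PC held 21.4 ± 1.79 distinct pairs and GC cells 24.1 ± 1.03, and the number was lower in PC of each mouse (difference -2.72 ± 0.859, exact sign-flip p = 0.25). PreMem held 29.4 ± 0.272 distinct pairs among 30 cells, 5.36 ± 0.912 more than GC cells (higher in 3 of 3 mice, exact sign-flip p = 0.25). LZ held 25.4 ± 0.922 and DZ 22.8 ± 1.17, a difference of 2.54 ± 0.322 in favour of LZ in every mouse (exact sign-flip p = 0.25).
Nearly every preMem cell had a pair of its own, with 89 pairs in 94 cells, 137 in 142 and 120 in 132. A pair also seen in the same mouse's GC cells was present in 40.0%, 75.4% and 48.5% of PC and in 38.3%, 40.8% and 42.4% of preMem cells. Pairs were also shared with the GC cells of other mice, which differ in number. Of the PC with a pair, 18, 43 and 16 matched GC cells of their own mouse, against 13 and 17, 22 and 35, and 16 and 13 that matched GC cells of each other mouse. Of the preMem cells 36, 58 and 56 matched their own mouse, against 23 and 28, 24 and 36, and 24 and 28. A shared pair is therefore not read as kinship between cells.

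**Figure D5:**
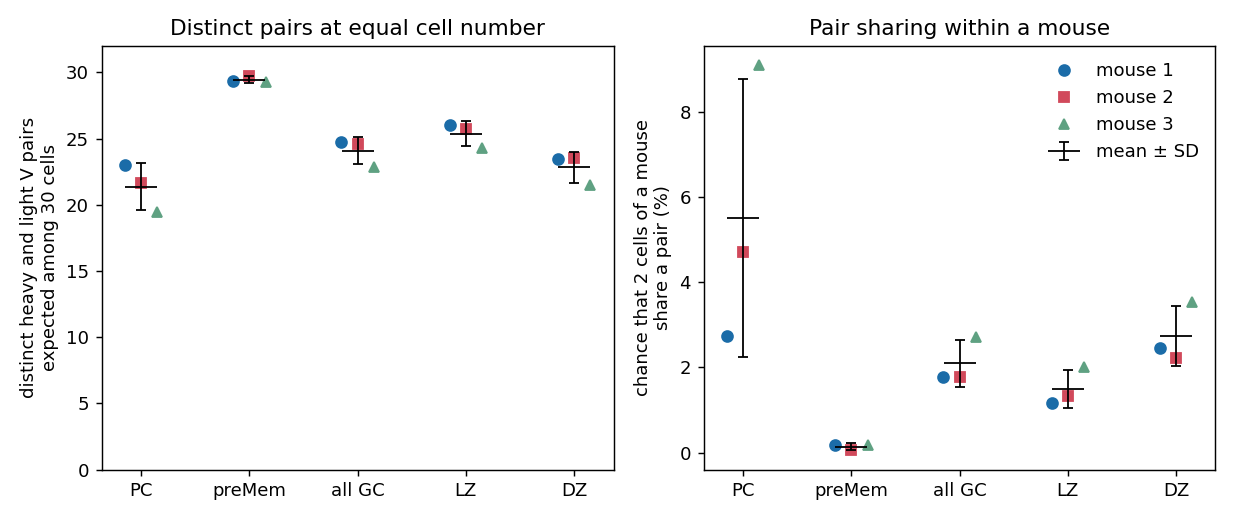
Heavy and light V pairs by state. The left y axis is the number of distinct pairs expected among 30 cells of a mouse and the right one the chance (%) that 2 cells of a mouse share a pair; points are the 3 mice and the bar is the mean with its SD. PreMem is highest on the left, at 29.2 to 29.7, and lowest on the right.

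The transcript level of each member, as opposed to the number of cells it led, was compared on UMIs summed per mouse and state with edgeR's quasi-likelihood test, with mouse as a term and Benjamini-Hochberg adjustment over all genes. Levels are CPM, UMIs of a gene scaled to a common library total by the TMM method. GC levels are the mean of the 3 GC states of a mouse. Ighv genes together held 9.43% of all UMIs in PC, against 0.199% in GC cells. Ighv1-72 had 16906, 14420 and 19620 CPM in PC of mice 1, 2 and 3, against 68.0, 58.1 and 80.3 CPM in GC cells. PC were far above GC in each mouse, and the log2 fold change was 7.99 ± 0.15 (SE, adjusted p = 1.80e-13 by edgeR). The second barcode series held 117 of the 137 PC but 0 DZ, 0 LZ and 3 LZtoDZ cells. State and barcode series can therefore not be told apart in the levels compared between PC and GC cells. The PC with the most Ighv1-72 UMIs held 8.11% of those found in PC.
Counts of 5′ UMIs do not scale with transcript length, so top V counts were also set side by side per cell. The 29 PC led by it had a median of 965 UMIs of it, against 2079 UMIs of their own top V in the 106 PC led by other genes. Total depth was close, with medians of 23644 and 24295 UMIs in these cells.

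Of the 125 members, 91 passed the filter on low counts, and in PC 46 of them were higher and 7 lower than in GC cells. Over all 9230 genes tested, 25.3% were higher and 27.2% lower in PC. A member that is high only in PC passes the filter through those cells, so the 46 are a description. Behind 33 of the 46 a single cell held over 50% of the PC UMIs, and 22 led at most 1 PC. The largest fold changes were of this kind. Ighv1-43 had 6427, 16.5 and 0 CPM in PC, against 0.0836, 1.32 and 0.0691 CPM in GC cells, and 99.6% of its PC UMIs came from 1 cell. Ighv9-2 had 17754, 10.2 and 5.40 CPM in PC, against 1.34, 4.58 and 0.207 CPM in GC cells, and led 3 PC. Ighv13-2 had 1.44, 13570 and 0 CPM in PC, against 2.33, 4.85 and 7.77 in GC cells, with 99.9% of its PC UMIs in 1 cell; without mouse 2 its log2 fold change was -1.91. The others among the 10 largest were Ighv1-54 (11.6 ± 1.34), Ighv1-14, Ighv8-12, Ighv14-4, Ighv7-3, Ighv1-76 and Ighv1-74 (8.49 ± 2.08). Ighv1-54 had 37.3, 5393 and 7252 CPM in PC, against 7.88, 8.22 and 5.30 CPM in GC cells, with 0 CPM in LZtoDZ of each mouse. The calls of Ighv9-2, Ighv7-3 and Ighv1-76 were lost without mouse 1 (adjusted p = 0.197, 0.438 and 0.0702 by edgeR), and those of Ighv8-12 and Ighv1-74 without mouse 3 (adjusted p = 0.815 and 0.0843).
Ighv1-22 shows how such a level can differ from its use. It had 68.9, 28087 and 41.4 CPM in PC, against 100.1, 207.6 and 125.8 CPM in GC cells, so that the increase (log2 fold change 4.66 ± 1.58, adjusted p = 0.0241 by edgeR) was that of mouse 2, and PC of the other mice were lower. Without mouse 2 its log2 fold change was -0.998 (adjusted p = 0.0915). Members with every PC value above every GC value were fewer, 15 of the 46, and some of these also rested on 1 cell. A single cell held 99.1% of the PC UMIs of Ighv1-76, 99.5% of those of Ighv1-52 and 98.1% of those of Ighv1-66. The share was 22.8% for Ighv1-64, 38.9% for Ighv1-26 and 47.5% for Ighv1-19. Ighv9-2 and Ighv1-74, whose calls were lost without 1 mouse, were also among the 15. The 15 are therefore not read as members used by PC of every mouse. Besides Ighv1-72 they included Ighv1-64 (28974, 5276 and 2860 CPM in PC, 58.1, 36.5 and 68.4 in GC), Ighv1-26 (7994, 3854 and 10206 CPM in PC, 27.7, 28.3 and 30.1 in GC) and Ighv1-19 (4987, 7150 and 4702 CPM in PC, 26.0, 27.8 and 17.4 in GC), the last pair named after their values were seen. Adjusted p for these 3 was 1.35e-07, 2.88e-09 and 8.21e-09 by edgeR.

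The 7 members that were lower in PC were used in the GC and hardly found in PC. Ighv1-58 had 0 UMIs in PC and 1584 in GC cells, at least 38.2-fold lower per UMI, taking 3 counts over the group as the floor. Ighv3-1 had 1 UMI in PC and 4423 in GC cells, a ratio of 320 with an exact 95% counting interval of 57.5 to 12657. Ighv1-36 had 2 UMIs in PC and 2775 in GC cells (ratio 101, interval 27.8 to 830). Ighv2-2 had 4.31, 1.27 and 0 CPM in PC, against 25.9, 36.4 and 40.5 CPM in GC cells (log2 fold change -3.84 ± 1.01, adjusted p = 0.00594 by edgeR). Ighv3-8, Ighv15-2 and Ighv7-4 had 0 UMIs in PC and 562, 168 and 144 in GC cells. These ratios and intervals take every UMI as a separate draw. PC led by Ighv1-72 held a median of 965 UMIs of it, and other PC 2079 of their own top V. The 135 PC with a top V are therefore far fewer draws than their UMIs. Ighv1-58, Ighv3-8, Ighv15-2 and Ighv7-4 led 82, 44, 14 and 8 cells in all. A lower use of these genes by PC is not shown by the ratios. The call of Ighv1-58 was lost without mouse 3 (adjusted p = 0.170), and those of Ighv3-8 and Ighv7-4 without mouse 1 (adjusted p = 1.0 and 0.0562).
UMIs of Ighv1-72 were also present in cells led by other genes. At least 1 Ighv1-72 UMI was found in 41.5% of PC led by another V, and in 6.63% to 6.98% of the cells led by another V in each of the other states. The median total was 24295 UMIs in those PC and 4055 to 20260 in the other states. A UMI of Ighv1-72 alone is therefore not counted as use of the gene here.

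In preMem cells 17 members were higher and 2 lower than in GC cells, 18.7% and 2.20% of the 91 tested, where 24.6% and 20.9% of all genes were. Ighv1-64 was the most widely carried, with 29 preMem cells led. It had 336, 190.2 and 247 CPM in preMem, against 58.1, 36.5 and 68.4 CPM in GC cells, and every preMem value was above every GC value (log2 fold change 2.44 ± 0.53, adjusted p = 0.00207 by edgeR). Ighv1-26 had 39.7, 66.6 and 155.0 CPM, against 27.7, 28.3 and 30.1 (log2 fold change 1.81 ± 0.43, adjusted p = 0.00371). Ighv6-3 had 58.5, 146.7 and 193 CPM, against 25.7, 28.7 and 45.1 (log2 fold change 2.14 ± 0.66, adjusted p = 0.0173). Against the mean of the 3 GC states, these 3 genes were raised in preMem of each mouse. In mouse 1, however, Ighv1-26 was lower in preMem than in LZ (62.2 CPM), with 20.9 CPM in DZ and 0 CPM in the 43 LZtoDZ cells. Ighv1-26 and Ighv6-3, named after their values were seen, lost the call without mouse 3 (adjusted p = 0.0858 and 0.119).
Ighv1-72 itself was called higher in preMem, with 108.6, 110.0 and 66.8 CPM, against 68.0, 58.1 and 80.3 CPM in GC cells (log2 fold change 0.53 ± 0.16, adjusted p = 0.0130 by edgeR), and mouse 3 went the other way. The call was lost without mouse 1 (adjusted p = 0.145) and without mouse 2 (adjusted p = 0.407). All Ighv genes together held 0.283% of UMIs in preMem and 0.199% in GC cells. The largest fold change, of Ighv3-4 (7.01 ± 1.31), rested on 2 cells with 58 UMIs in all. The next were Ighv1-54 (5.11 ± 1.56), Ighv2-6-8 (4.96 ± 0.73), Ighv1-49, Ighv1-47, Ighv2-9, Ighv2-3, Ighv5-17, Ighv5-12 and Ighv4-1 (3.41 ± 1.05). Of these, Ighv1-54 lost its call without mouse 3, Ighv4-1 without mouse 1, Ighv1-47 without mouse 1 or 2 and Ighv5-12 without mouse 2 or 3. Ighv1-54 had 83.6, 2.72 and 54.0 CPM in preMem, against 7.88, 8.22 and 5.30 CPM in GC cells, with mouse 2 the other way. Its fold change weights the 3 GC states equally on the log scale, and it had 0 CPM in LZtoDZ of each mouse. Ighv3-1 was lower in preMem (8.36, 17.7 and 1.42 CPM, against 4.90, 38.4 and 136.5 CPM; log2 fold change -2.69 ± 0.76, adjusted p = 0.0104), with mouse 1 the other way, and the call was lost without mouse 3 (adjusted p = 0.926). Ighv3-8 had 1 UMI in preMem and 562 in GC cells (ratio 22.3, interval 3.99 to 884, with UMIs again taken as separate draws). Its call was lost without mouse 1 (adjusted p = 0.913) or mouse 2 (adjusted p = 0.0906).

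Between LZ and DZ 2 members were higher and 1 lower in LZ, against 11.6% and 8.97% of all genes. Ighv1-37 had 0, 0.173 and 11.1 CPM in LZ and 0.134, 0.0857 and 1.53 CPM in DZ, with most of its UMIs in mouse 3. Ighv7-4 had 1.76, 12.9 and 0.127 CPM in LZ and 0.134, 2.66 and 0.242 CPM in DZ. Ighv1-36 had 14.6, 46.2 and 40.0 CPM in LZ and 13.0, 52.0 and 99.2 CPM in DZ (log2 fold change -0.75 ± 0.22, adjusted p = 0.0295 by edgeR). None of the 3 kept its call with DESeq2 or without mouse as a term. Ighv1-72 did not pass the test between the zones.

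The genes that serve heavy chain expression were read in the same fit, where most PC also differ from GC cells in barcode series. Over all genes tested, 25.3% rose and 27.2% fell in PC against GC cells, which is the share to set the list counts against. Of 11 factors that act on the heavy chain locus, 2 rose and 8 fell in PC against GC cells (list median log2 fold change -1.10, all genes -0.11). Irf4, needed for plasma cell differentiation, rose (5.28 ± 0.17), while Spib (-4.57 ± 0.18), Pax5 (-4.21 ± 0.26) and Ebf1 (-3.41 ± 0.15), transcription factors of B cell identity, fell. Of 5 genes tied to secreted heavy chain mRNA, 3 rose and 2 fell (median 2.99). Hnrnpll, an RNA-binding protein of plasma cells, rose by 6.42 ± 0.61, Xbp1, the transcription factor of secretory capacity, by 4.89 ± 0.10 and Ell2, an elongation factor that favours the secretory poly(A) site, by 2.99 ± 0.11, while Cstf2, a cleavage factor of poly(A) sites, was lower (-0.84 ± 0.23). Of 8 folding and assembly genes, 5 rose and 3 fell (median 3.49), led by the disulphide isomerase Pdia4 (6.03 ± 0.09), Jchain (5.18 ± 0.13), Derl3 of the degradation pathway (4.86 ± 0.09) and the co-chaperone Mzb1 (3.86 ± 0.05). Of 8 somatic hypermutation genes, 0 rose and 7 fell (median -1.47), among them the repair genes Apex1 (-1.86 ± 0.14) and Msh6 (-1.76 ± 0.15). The highest adjusted p of a call was 0.0331 by edgeR.
In preMem against GC cells the counts were 3 higher and 2 lower of 11 locus factors, 0 and 2 of 5 secretion genes, 3 and 4 of 8 folding genes, and 0 and 6 of 8 hypermutation genes (medians -0.01, -0.62, -0.37 and -0.67, all genes 0.08). Over all genes 24.6% were higher and 20.9% lower, so the count of locus factors is near that share. In LZ against DZ cells the counts were 2 and 4, 0 and 0, 3 and 2, and 1 and 1 (medians -0.10, -0.07, 0.10 and -0.00, all genes 0.02), where 11.6% of all genes were higher and 8.97% lower. Polh, the error-prone polymerase of hypermutation, was lower in LZ (-1.29 ± 0.08).

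Cells led by Ighv1-72 were compared with cells led by other V genes in the other transcripts of DZ and LZ cells, with zone and mouse as terms. Of 8260 genes other than Ighv genes, 7 were higher (0.0847%) and 41 lower (0.496%) in Ighv1-72 cells, and 40 of these 48 were immunoglobulin genes. Iglv1 had 7283, 5965 and 6621 CPM in Ighv1-72 cells, against 841, 761 and 448 CPM in the others (log2 fold change 3.36 ± 0.12, adjusted p = 1.16e-13 by edgeR). Igkc had 742, 412 and 988 CPM, against 1314, 1193 and 1323 CPM, and Iglc3, a lambda constant gene, fell as well (-0.96 ± 0.08). Iglc1, the constant gene of lambda1, had 312, 345 and 320 CPM in Ighv1-72 cells, against 357, 325 and 314 CPM in the others, and did not pass the test (log2 fold change 0.00 ± 0.07), nor did Iglc2 (-0.02 ± 0.06). How reads were divided among the Iglc genes is not known, and the reason for the unchanged Iglc1 level was not tested.
Outside the immunoglobulin genes 4 were higher and 4 lower. Egr1, an immediate early transcription factor induced by receptor signalling, had 93.8, 82.9 and 122.3 CPM in Ighv1-72 cells, against 75.1, 63.4 and 66.0 CPM in the others (log2 fold change 0.60 ± 0.12, adjusted p = 0.00912). Tnfsf9, a ligand of the TNF family, had 55.7, 28.9 and 26.6 CPM, against 21.8, 21.6 and 16.8 (0.75 ± 0.17, adjusted p = 0.0327). Id3, an inhibitor of E proteins, had 497, 497 and 486 CPM, against 418, 413 and 428 (0.24 ± 0.05, adjusted p = 0.0333). Rpl36, a ribosomal protein gene, was lower (1471, 1536 and 1515 CPM, against 1745, 1681 and 1742; -0.16 ± 0.04, adjusted p = 0.0403). In each of these the 2 groups of 3 mice did not overlap. Lgals9, a galectin, had 16.4, 13.6 and 5.99 CPM in Ighv1-72 cells, against 29.1, 27.2 and 18.4 CPM in the others (-1.09 ± 0.22, adjusted p = 0.00836). The clone-named genes RP23-435I4.11 (-1.52 ± 0.21) and RP23-247I11.8 (adjusted p = 0.0108) were lower, and the mean of the first was 120.3 CPM in Ighv1-72 cells and 352 CPM in the others. By mouse, RP23-435I4.11 had 89.3, 53.1 and 218 CPM in Ighv1-72 cells, against 349, 328 and 378 CPM, the same order over mice as Igkc. Immunoglobulin genes were set apart by name only, and a link of RP23-435I4.11 to the light chain was not tested. Cdk6, a kinase of the G1 phase named here after its values were seen because it averaged below 20 CPM, was higher (0.80 ± 0.18, adjusted p = 0.0258). Of these 8 genes, RP23-435I4.11 kept its call whichever mouse was left out. The others lost it at least once, Egr1 without mouse 3 (adjusted p = 0.767) and Tnfsf9 and Cdk6 whichever mouse was left out (adjusted p = 0.0628 to 0.305 and 0.0848 to 0.497). Of the 32 genes on the 4 heavy chain lists 30 could be tested, and 0 passed the test in this comparison, where 549 of all non-immunoglobulin genes had an unadjusted p under 0.05.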

How the data were processed

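The deposited count table holds raw UMI counts per gene and cell, and the authors' cell table gives mouse, state, cycle phase and total count. Per the submitters' processing notes Cell Ranger and Seurat were used with mm10/GRCm38; no versions and no rule for multi-mapped reads were stated. The 12 libraries (mRNA, hashtag and receptor, in PC and non-PC fractions) have no files of their own, and the 3 mice are the replicates. Receptor sequences were not analysed here. The members, lists and named genes were chosen with earlier results of these data known.

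Shares of cells were compared with the exact two-sided sign-flip permutation test over mice (smallest p 0.25 with 3 pairs, 0.50 with 2). Intervals of shares are exact Clopper-Pearson 95% intervals and cover counting error only. Levels were tested with edgeR 4.0.16 (TMM, filterByExpr, quasi-likelihood, threshold 0.05) on UMI sums of each mouse in each state, at least 20 cells a sum. GC was the average of DZ, LZ and LZtoDZ with equal weight on the log scale, so a GC state at 0 CPM raises a fold change over GC. The SE given with an edgeR log2 fold change is its absolute value divided by the square root of the F statistic, so it is derived from the test. DESeq2 1.42.0 was an alternative. The edgeR test was also run on counts simulated from the fitted values, and the outcome is not reported here. Mouse was a block because the same animals gave every state; deviations of states of the same mouse correlated with a median r of 0.05, against -0.03 between mice. Library factors were 0.565 to 0.716 in PC and 1.04 to 1.16 in the other states.

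Genes named are Ighv1-72, the 10 most used members, the 3 leading V genes of each mouse, the leading one of each state, called members by size of change (up to 10 per direction), and, outside the family, called genes above 20 CPM and called list genes, up to 4 per list; some list genes are not reported here.

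Alternatives were the minimum of 1 or 5 UMIs, a top V with 80% of Ighv UMIs, thinning to 2000 UMIs, no filter, sums of at least 10 cells, libraries without immunoglobulin genes, no block, and each mouse left out. Chosen after seeing the data were the light chain read from constant genes, cells without a second V, PC of the second barcode series, and the G1 share.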

Additional observations from a re-analysis of the deposited data

How the results depend on the processing

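Of 58 alternatives to the 7 share comparisons, 57 kept the direction. The exception was the preMem minus GC share of Ighv1-72, which was 0.614 points with cells thinned to 2000 UMIs. With a top V of at least 80% of Ighv UMIs, LZ minus DZ was -1.10, preMem minus GC -1.18 and the DZ share difference 3.63 points; without cells that had a second V, LZ minus DZ was -1.49 and the DZ share difference 4.33. With a mouse left out, the shares ranged from 9.82 to 14.7 points for PC minus GC, -3.001 to -0.836 for preMem minus GC, -2.95 to -1.90 for LZ minus DZ, 75.9 to 82.8 for lambda, -14.0 to -2.996 for IgG1, -11.8 to -5.39 for G1 and 5.01 to 8.65 for the DZ share.

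The number of members called in PC against GC was 53, and 45 with no replicate block on mouse, 56 with DESeq2 and 41 to 47 with a mouse left out. In preMem against GC it was 19, and 15 without the replicate block, 30 with no filter on low counts, where more genes are tested, and 14 to 25 with a mouse left out. In LZ against DZ it was 3, and 0 without the replicate block, 0 with DESeq2, 9 with no filter, 1 with sums of at least 10 cells and 1 to 8 with a mouse left out (1 without mouse 2, 8 without mouse 1), so no statement rests on it. Non-Ighv genes called between Ighv1-72 and other cells numbered 48, 33 without the replicate block, 144 with no filter and 46 to 68 with a mouse left out. Of 455 alternatives for 56 named gene results, 2 reversed, both without mouse 2 (with a mouse left out, Ighv13-2 in PC ranged from -1.91 to 10.7 and Ighv1-22 in PC from -0.998 to 5.79 in log2 fold change) and 77 lost the call; the cause was not tested. Leaving immunoglobulin genes out of the library size moved the median of all genes by under 0.1 (log2) and gave 53, 20, 3 and 48 calls.

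Depth limits the top V: preMem cells and GC cells each had a median of 11 Ighv UMIs and PC 1708.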
